A study of Mus musculus with 12 samples.

Results

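The MHC class II genes and their transactivator were followed through the colon of mice with chemically induced colitis. The set held 9 genes, H2-Aa, H2-Ab1, H2-Eb1, H2-DMa, H2-DMb1, H2-DMb2, H2-Oa, Cd74 and Ciita, found by symbol among the 54532 genes of each count table, and all 9 were among the 17658 genes with enough counts to be tested. To ask how ursolic acid (UA, a plant triterpenoid) acts on dextran sulfate sodium (DSS) colitis, RNA of whole colon tissue was sequenced in 12 libraries, 3 in each of 4 groups. DSS is a sulfated sugar polymer that damages the colon lining when mice drink it. All mice were male C57BL/6 without engineered alleles in the descriptions, 6 weeks old on arrival and kept 1 week before treatment. The Con group drank no DSS, and its label calls it untreated while the study's methods give it vehicle by gavage. The DSS group drank 3% DSS for 5 days with vehicle. The UA+DSS group had the same DSS with UA by gavage from 1 day before it (prevention), and the DSS+UA group had UA from 3 days after DSS began (treatment). By the study's methods both had the same daily dose, but UA+DSS had it for more days. The start and the duration of UA thus cannot be told apart between these groups. The labels do not say which animal each library came from, so p-values measure the spread between these libraries.

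MHC class II molecules are pairs of an alpha and a beta chain that show fragments of taken-up proteins to CD4 T cells. Dendritic cells, macrophages and B cells carry them constantly, and many other cells, the intestinal epithelium included, can be induced to make them by interferon gamma. Ciita does not bind DNA itself but docks on the factors RFX, CREB and NF-Y, which sit on the X and Y boxes of class II promoters, and it switches the whole family on.

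In these libraries the 9 genes showed more than 1 pattern. H2-DMb2 was 9.25-fold lower in UA+DSS than in DSS (log2 fold change -3.21, SE 0.84, n = 3 and 3, edgeR adjusted p = 0.0271) and 7.07-fold lower in UA+DSS than in DSS+UA (log2 -2.82, SE 0.83, edgeR adjusted p = 0.0414). The inhibitor gene H2-Oa had the same order of groups but did not pass the test. The classical chain genes H2-Aa, H2-Ab1 and H2-Eb1, the invariant chain Cd74, and H2-DMa and H2-DMb1 went up and down together from library to library and passed the test in none of the 6 comparisons. Their groups overlapped in every comparison.

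Of the 9 genes, 7 lie in the MHC on chromosome 17 (GRCm38). They are H2-Oa (34092340 to 34095234), H2-DMa (34119541 to 34139101), H2-DMb2 (34143307 to 34151555), H2-DMb1 (34153072 to 34160230), H2-Ab1 (34257689 to 34269419), H2-Aa (34282744 to 34287823) and H2-Eb1 (34305867 to 34316674). H2-Aa is on the minus strand and the other 6 are on the plus strand. Ciita lies on chromosome 16 (10480059 to 10528418), and Cd74 lies on another chromosome. H2-DMb1 and H2-DMb2 are neighbouring copies of one beta chain gene, and 22.7% of the 50-base stretches of H2-DMb1 transcripts and 25.9% of those of H2-DMb2 also occur in another gene, mainly in the partner copy. Reads from such stretches could have been split or dropped, and the handling is not given in the sources used here. Exons also overlap genes on the other strand for H2-DMa (Brd2, 360 bases), H2-Oa (BC051537, 321 bases) and Ciita (Dexi, 329 bases), so the values of these 3 genes may hold reads of those partners.

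The promoter stretches below are shown because H2-DMb1 and H2-DMb2, neighbouring copies of which H2-DMb2 alone passed a test, have nearly the same class II promoter box. RefSeq promoters (GRCm38.p6) were searched on both strands for the X1 letters (the RFX side of the X box, a consensus of 14 positions with 10 fixed letters) followed after 14 to 30 bases by the Y letters ATTGG. Each line gives 30 bases in the 5′ to 3′ direction of the gene, with the best X1 match in capitals.
H2-DMb1: ggtttaCCTAGTAACTGATGatgctaggct
H2-DMb2: ggtttaCCTATTAACCGATGatgctaggct
H2-Eb1: tctctaACTAGCAACTGATGatgctggact
H2-Oa: tccttgCCCAGCAACAAACCcattatctca
H2-Ob: gttctgCCTAGCAACAAATGatgcaaagtc

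The stretches lie at chr17:34153087-34153116 (H2-DMb1), chr17:34145116-34145145 (H2-DMb2), chr17:34305766-34305795 (H2-Eb1), chr17:34092293-34092322 (H2-Oa) and chr17:34238808-34238837 (H2-Ob), all on the plus strand. The H2-DMb1 stretch touches an exon of the GENCODE annotation, and the other 4 touch none. The H2-DMb2 stretch precedes the RefSeq start used here but lies inside the GENCODE model of H2-DMb2 (34143307 to 34151555). The H2-DMb1 box matched all 10 fixed letters. The H2-DMb2 box differed from the H2-DMb1 box by G5T and T10C, counted from 1 at the first capital, and only the first of these changes a fixed letter of the motif. From the first X1 letter to the last Y letter, 37 of 42 bases were the same in both copies, and the Y letters followed after 23 bases in each. H2-Eb1 and H2-Ob, the latter the beta partner of H2-Oa, had 1 mismatch each, and H2-Oa had 3. An X1 match with at most 1 mismatch and Y letters behind it was present in 0.0639% of 32851 promoters, and one with at most 3 mismatches in 2.45%. H2-Aa and H2-DMa had no such pair within 4 mismatches in this window. H2-Ab1 and Ciita were not in the promoter table. A match is a likeness of letters and was not tested as a site.

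Total counts ran from 15566216 to 19498383 per library. Levels are given as CPM, counts scaled to library size with a TMM factor. The 9 epithelial markers of the labelled colon tissue were present at 4840 to 23300 summed CPM. The library DSS 3 held pancreas transcripts (11200 summed CPM for 5 pancreas genes, against 30.6 to 554 in the other libraries), and DSS 2 held the most neutrophil transcripts (16100 summed CPM for 5 markers). A Hox score was computed from genes that mark position along the gut, subtracting the mean log2 CPM of Hoxb3 to Hoxb8 from that of 5 posterior genes (Hoxb13, Hoxd10, Hoxd11, Hoxd12, Hoxd13). It ran from 0.37 to 3.10 in DSS, from 4.11 to 5.06 in DSS+UA and from -5.70 to -4.16 in UA+DSS, so the colitis groups did not overlap with each other. In Con it was 5.53, -3.03 and -1.83. In bulk tissue, fewer cells of a type and less RNA per cell cannot be told apart.

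**Figure D1:**
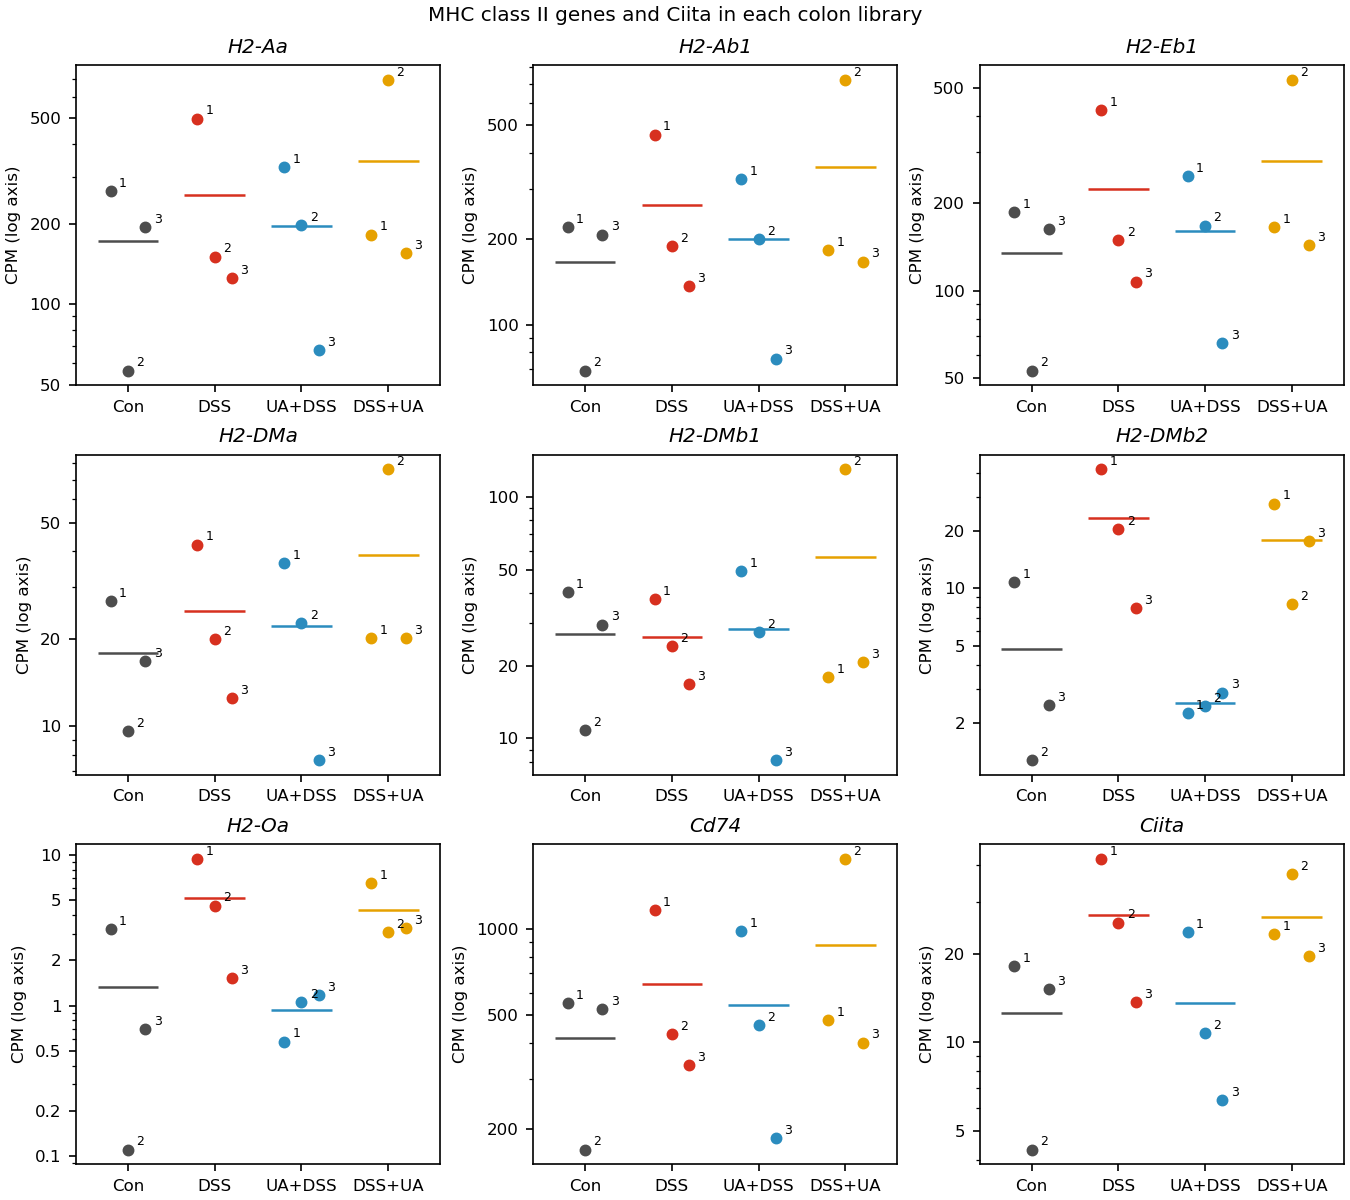
CPM of each of the 9 genes (log axis) in the 12 libraries, by group. Each point is 1 library with its replicate number, and the line is the group mean. Replicate 2 of DSS+UA is the highest point for H2-Aa, H2-Ab1, H2-Eb1, H2-DMa, H2-DMb1 and Cd74 but not for H2-DMb2, H2-Oa or Ciita, and the 3 UA+DSS points of H2-DMb2 (2.25, 2.44 and 2.87 CPM) lie close together below all DSS and DSS+UA points.

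Levels between genes were compared per kilobase of exon. Cd74, the invariant chain that fills the groove of new class II molecules and guides them to the endosome, was the most abundant, at 370 ± 276 CPM per kb (mean ± SD, n = 12). The classical chain genes followed at 103 ± 72.4 for H2-Eb1, 96.0 ± 71.6 for H2-Ab1 and 64.0 ± 48.9 for H2-Aa. These SDs describe the spread between libraries, which the genes share. H2-Aa was below H2-Ab1 and H2-Eb1 in every library, for instance at 14.85 against 26.85 and 27.31 CPM per kb in Con 2. The differences between genes were not tested. The peptide exchange genes were lower, at 20.5 ± 19.4 CPM per kb for H2-DMb1, 7.51 ± 5.44 for H2-DMa and 6.95 ± 7.20 for H2-DMb2. Ciita (2.10 ± 1.19) and H2-Oa (2.09 ± 1.98) had the lowest means, and which of them was higher changed from library to library. H2-Ea is annotated as a pseudogene and had 1 count in all, and C57BL/6 mice are known to lack this alpha chain.

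The DM molecule, made of H2-DMa and a DMb chain, swaps the invariant chain remnant for antigenic peptide. H2-DMb2 stood at 10.8, 1.28 and 2.46 CPM in the Con libraries and at 41.8, 20.4 and 7.92 CPM in DSS. It stood at 2.25, 2.44 and 2.87 CPM in UA+DSS and at 27.7, 8.29 and 17.6 CPM in DSS+UA. All UA+DSS libraries were below all DSS and all DSS+UA libraries, while Con overlapped the other groups, with Con 1 above DSS 3 and above DSS+UA 2. The UA+DSS libraries were also the most even, with a mean of 2.52 ± 0.321 CPM (SD, n = 3) against 23.4 ± 17.1 in DSS. H2-DMb2 was called lower in UA+DSS than in DSS, with a 95% interval of the log2 difference from -4.85 to -1.57, and lower than in DSS+UA (-4.44 to -1.20). The log2 difference of DSS from Con was 2.27 (SE 0.80, edgeR adjusted p = 0.0580), and that of DSS+UA from Con was 1.88 (edgeR adjusted p = 0.114). DSS+UA and DSS did not differ detectably (log2 -0.39, 95% interval -1.87 to 1.09, edgeR adjusted p = 0.760), nor did UA+DSS and Con (log2 -0.94, -2.51 to 0.62, edgeR adjusted p = 0.629).

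Both H2-DMb2 calls stood near the threshold. The UA+DSS against DSS call passed in 13 of 21 alternatives and was lost without DSS 1 (edgeR adjusted p = 0.0809), DSS 2 (0.0537), UA+DSS 1 (0.0785), UA+DSS 2 (0.106) or UA+DSS 3 (0.0794), whereas without the pancreas-bearing DSS 3 it was 0.0159. The UA+DSS against DSS+UA call passed in 12 of 21 and was lost without any 1 UA+DSS library (edgeR adjusted p up to 0.134), DSS+UA 1 (0.109) or DSS+UA 3 (0.0945). With the Hox score as a covariate the first difference shrank to log2 -0.70 (edgeR adjusted p = 0.620) and the second turned to 0.52 (0.849). The scores of UA+DSS, DSS and DSS+UA do not overlap with each other, so the score and the group cannot be told apart in any comparison of colitis groups.

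H2-DMb1, the neighbouring copy, passed no test. It stood at 40.4, 10.8 and 29.6 CPM in Con, 37.7, 24.2 and 16.8 in DSS, 49.5, 27.5 and 8.14 in UA+DSS, and 18.0, 130 and 20.7 in DSS+UA. The groups overlapped throughout, and DSS+UA 2 alone was far above the rest. Its log2 differences were -0.04 for DSS against Con (95% interval -1.68 to 1.59) and 0.11 for UA+DSS against DSS (-1.52 to 1.75). Per 100 H2-DMb1 counts there were 111, 84.6 and 47.3 H2-DMb2 counts in DSS but 4.54, 8.86 and 35.3 in UA+DSS. Con had 26.7, 11.8 and 8.30, and DSS+UA had 154, 6.37 and 85.0. The 3 DSS ratios were thus above all Con and UA+DSS ratios, and DSS+UA spanned nearly the whole range. Over the 4 groups the log2 ratio did not pass the exact permutation test (F = 2.19, p = 0.191, adjusted over 4 ratios 0.342, 369600 assignments, smallest possible p 6.49e-05).

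H2-DMa, the alpha chain, stood at 27.0, 9.65 and 16.8 CPM in Con, 42.0, 19.9 and 12.5 in DSS, 36.3, 22.6 and 7.66 in UA+DSS, and 20.1, 76.2 and 20.1 in DSS+UA. The groups overlapped, and the order of the libraries was close to that of H2-DMb1. Its log2 difference was 0.48 for DSS against Con (95% interval -0.90 to 1.85) and -0.17 for UA+DSS against DSS (-1.54 to 1.21).

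H2-Oa encodes the alpha chain of the DO molecule, which binds DM and restrains it, mainly in B cells. It stood at 3.21, 0.111 and 0.695 CPM in Con, the lowest value resting on 2 counts, and at 9.43, 4.61 and 1.53 CPM in DSS. It stood at 0.577, 1.06 and 1.17 CPM in UA+DSS and at 6.53, 3.09 and 3.27 CPM in DSS+UA. As for H2-DMb2, every UA+DSS library was below every DSS and every DSS+UA library, and Con overlapped all groups. The log2 difference was -2.46 for UA+DSS against DSS (SE 0.93, 95% interval -4.28 to -0.64, edgeR adjusted p = 0.0860) and -2.19 for UA+DSS against DSS+UA (SE 0.92, edgeR adjusted p = 0.123). Against Con it was 1.95 for DSS (edgeR adjusted p = 0.128), 1.67 for DSS+UA (0.202) and -0.51 for UA+DSS (0.832). The UA+DSS against DSS difference passed without Con 1 (edgeR adjusted p = 0.0356), Con 2 (0.0468) or DSS 3 (0.0497) and by DESeq2 (0.0225). H2-Oa counts per 100 H2-DMa counts were 22.5, 23.2 and 12.2 in DSS and 1.59, 4.71 and 15.3 in UA+DSS, which overlap (exact permutation test over the 4 groups, F = 1.67, p = 0.256, adjusted 0.342).

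H2-Aa and H2-Ab1 encode the alpha and beta chains of the A molecule, which presents peptides at the cell surface, and H2-Eb1 encodes the beta chain of the E molecule, whose alpha partner is missing in these mice. H2-Ab1 stood at 220, 68.9 and 207 CPM in Con, 465, 188 and 136 in DSS, 325, 200 and 76.0 in UA+DSS, and 183, 723 and 166 in DSS+UA. Within each group the highest library was 3.19 to 4.34 times the lowest, which is more than any difference between group means. H2-Aa stood at 267, 56.4 and 195 CPM in Con, 497, 151 and 125 in DSS, 327, 198 and 67.3 in UA+DSS, and 182, 694 and 156 in DSS+UA. H2-Eb1 stood at 187, 53.1 and 164 CPM in Con, 418, 150 and 108 in DSS, 248, 168 and 66.2 in UA+DSS, and 166, 533 and 143 in DSS+UA. In all 3 genes Con 2 was the lowest library, UA+DSS 3 the next lowest and DSS+UA 2 the highest. H2-Eb1 counts per 100 H2-Ab1 counts ran only from 73.7 to 90.7 over the 12 libraries, with no difference between groups by the exact permutation test (F = 0.118, p = 0.947, adjusted 0.947).

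Cd74, which lies on chromosome 18, stood at 553, 169 and 526 CPM in Con, 1170, 430 and 334 in DSS, 986, 462 and 185 in UA+DSS, and 482, 1763 and 401 in DSS+UA. Its groups overlapped in the same way, and its means ± SD were 416 ± 214, 644 ± 458, 545 ± 407 and 882 ± 764 CPM (n = 3 each). The log2 differences of the 6 genes H2-Aa, H2-Ab1, H2-Eb1, H2-DMa, H2-DMb1 and Cd74, a grouping made after their values were seen, had SEs of 0.70 to 0.84. Against Con their median was 0.60 in DSS (lowest edgeR adjusted p among the 6 0.463), 0.27 in UA+DSS (0.851) and 1.07 in DSS+UA (0.275). Against DSS it was -0.31 in UA+DSS (edgeR adjusted p at least 0.678) and 0.45 in DSS+UA (0.404), and it was -0.81 in UA+DSS against DSS+UA (0.432). Leaving out 1 library turned the sign of 5 of these 6 medians. Without DSS 1 the median was -0.13 for DSS against Con and 0.46 for UA+DSS against DSS, and the latter was 0.095 without UA+DSS 3. Without DSS+UA 2 it was -0.59 for DSS+UA against DSS and 0.19 for UA+DSS against DSS+UA. For UA+DSS against Con it was -0.31 without UA+DSS 1 and -0.10 without Con 2. The median for DSS+UA against Con kept its sign, at 0.095 without DSS+UA 2 and at least 0.70 without any other library.

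Ciita stood at 18.1, 4.33 and 15.2 CPM in Con, 42.0, 25.5 and 13.7 in DSS, 23.7, 10.8 and 6.38 in UA+DSS, and 23.3, 37.1 and 19.7 in DSS+UA. The 3 DSS+UA libraries lay above the 3 Con libraries, and all other pairs of groups overlapped. The log2 difference of DSS+UA from Con was 1.09 (SE 0.61, 95% interval -0.10 to 2.28, edgeR adjusted p = 0.221), and that of DSS from Con was 1.11 (SE 0.61, edgeR adjusted p = 0.193). UA+DSS differed from DSS by -0.99 on the log2 scale (SE 0.61, 95% interval -2.18 to 0.20, edgeR adjusted p = 0.276), and DSS+UA from DSS by -0.02 (-1.19 to 1.15, edgeR adjusted p = 0.988). Cd74 counts per 100 Ciita counts ran from 1680 in DSS 2 to 4750 in DSS+UA 2, and the log2 ratio did not differ between groups by the exact permutation test (F = 1.69, p = 0.251, adjusted 0.342).

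The counts of called members were set beside the share of all genes tested. For DSS against Con no member was called while 26.5% of all genes were, and none was free of overlap while 41.3% of all genes were, with 1 member at an unadjusted p under 0.05 and 1 called by DESeq2. An unadjusted edgeR p under 0.05 was reached by 7161 of the 17658 genes, and DESeq2 called 32.3% of all genes. For UA+DSS against DSS 1 of 9 was called, against 18.7% of all genes. It was lowered, as were 10.5% of all genes. Of the 9, 2 lay wholly below DSS against 21.7% of all genes, and 42.8% of all genes lay wholly to either side. For DSS+UA against DSS no member was called or at an unadjusted p under 0.05, against 7.54% of all genes called, DESeq2 called none either, and none was free of overlap against 34.7% of all genes. Here 5274 of the 17658 genes reached an unadjusted edgeR p under 0.05, and DESeq2 called 17.7% of all genes. Between UA+DSS and Con no member was called by edgeR or DESeq2, was at an unadjusted p under 0.05 or was free of overlap, where 0.00566% of all genes were called and 20.6% were free of overlap. There 2132 of the 17658 genes reached an unadjusted edgeR p under 0.05, and DESeq2 called 2.13% of all genes. For DSS+UA against Con edgeR called no member (18.1% of all genes called), 1 was at an unadjusted p under 0.05, DESeq2 called 1, and Ciita alone lay wholly above Con against 19.8% of all genes above and 38.9% to either side. Among the 17658 genes 6360 reached an unadjusted edgeR p under 0.05, and DESeq2 called 4661. In UA+DSS against DSS+UA 1 of 9 was called, against 16.8% of all genes. It was lowered, as were 9.23% of all genes. Of the 9, 2 lay wholly below against 22.5% of all genes, and 45.3% lay wholly to either side. The median log2 difference of the 9 was 0.67, -0.39, 0.42, 0.19, 1.09 and -0.84 in these 6 comparisons in turn, beside -0.03, -0.02, 0.02, -0.01, -0.03 and 0.01 over all genes. Where 1 member was called, its count lay near the share of all genes. Comparisons that share a group are not independent.

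**Figure D2:**
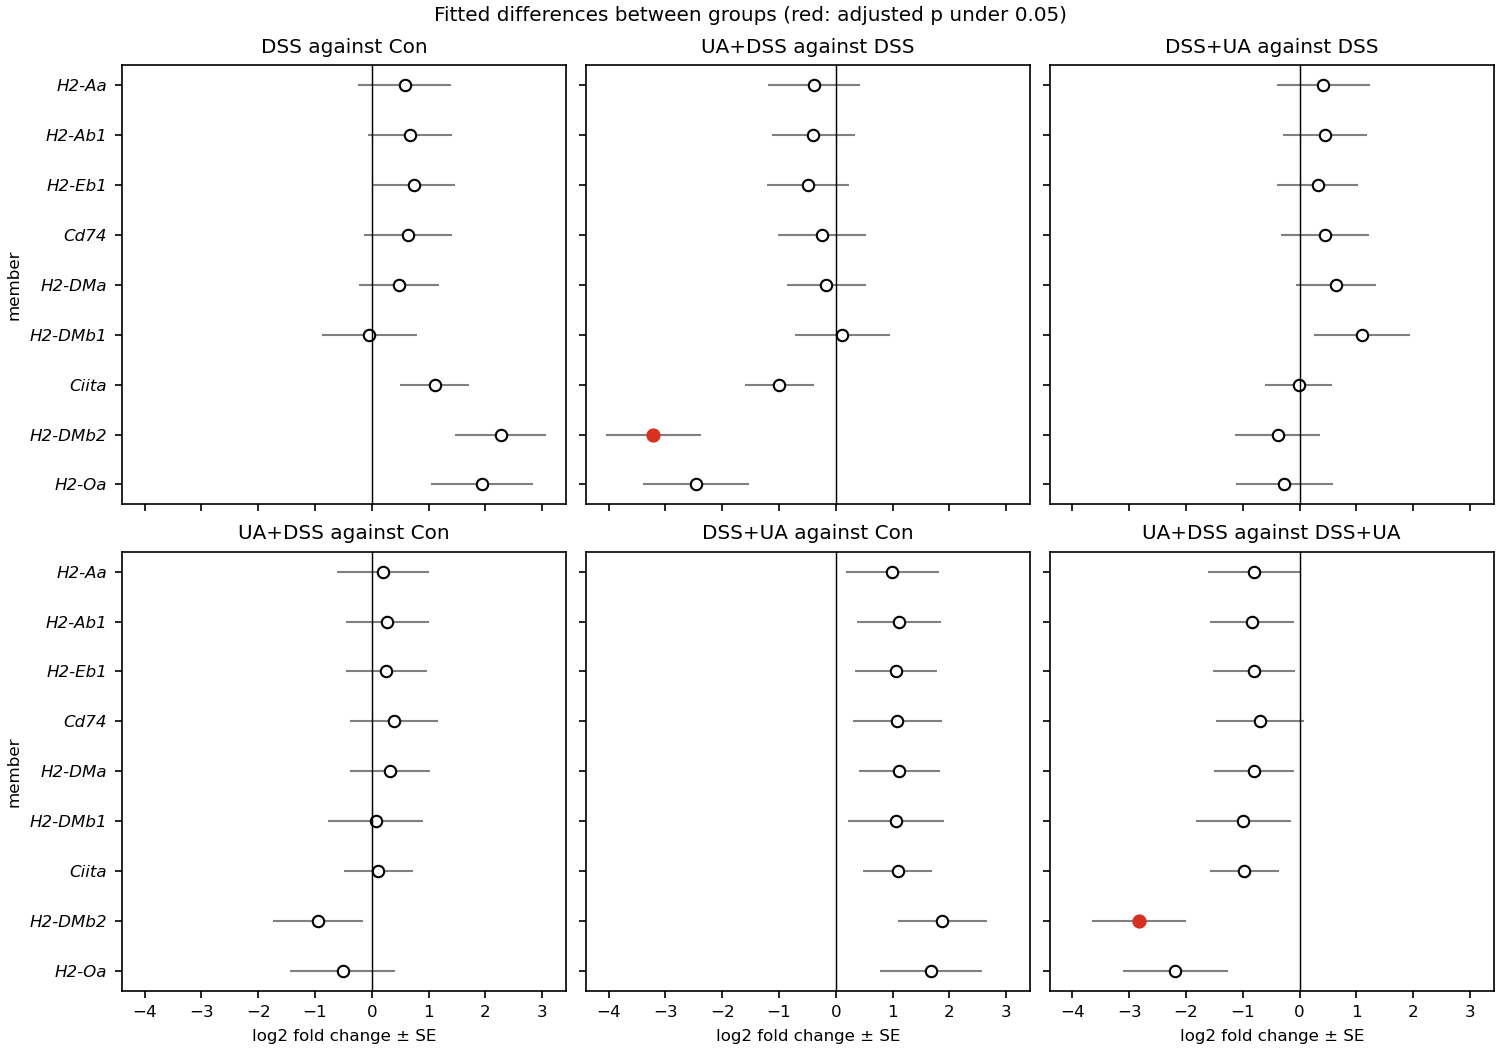
Fitted log2 fold change of each gene in the 6 comparisons (points), with bars of 1 SE and red points for an edgeR adjusted p under 0.05. Red marks H2-DMb2 alone, in UA+DSS against DSS (-3.21) and against DSS+UA (-2.82), with H2-Oa beside it at -2.46 and -2.19.

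The low number of calls went with a wide spread inside groups. Groups accounted for 7.67% (H2-DMb1) to 17.6% (H2-Eb1) of the variance of log2 CPM in the 6 co-varying genes, 40.5% for Ciita, 54.4% for H2-Oa and 68.6% for H2-DMb2, where the median tested gene had 58.0%. The SD within groups was 0.865 (Ciita) to 1.23 (H2-Oa) on the log2 scale, against a median of 0.371 over all tested genes. Across the 12 libraries the 6 genes correlated with each other at r = 0.915 to 0.995, and at 0.938 to 0.996 after the group means were taken off, so they also moved together within groups. H2-DMb2 correlated with H2-Oa at r = 0.956 (0.943 within groups), and the r of either with any of the 6 genes was at most 0.575. Ciita stood between, at 0.753 to 0.904 with the 6 and 0.729 to 0.770 with H2-DMb2 and H2-Oa. These correlations describe 12 libraries that share 4 groups, and the genes of 1 library share its depth and tissue piece.

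**Figure D3:**
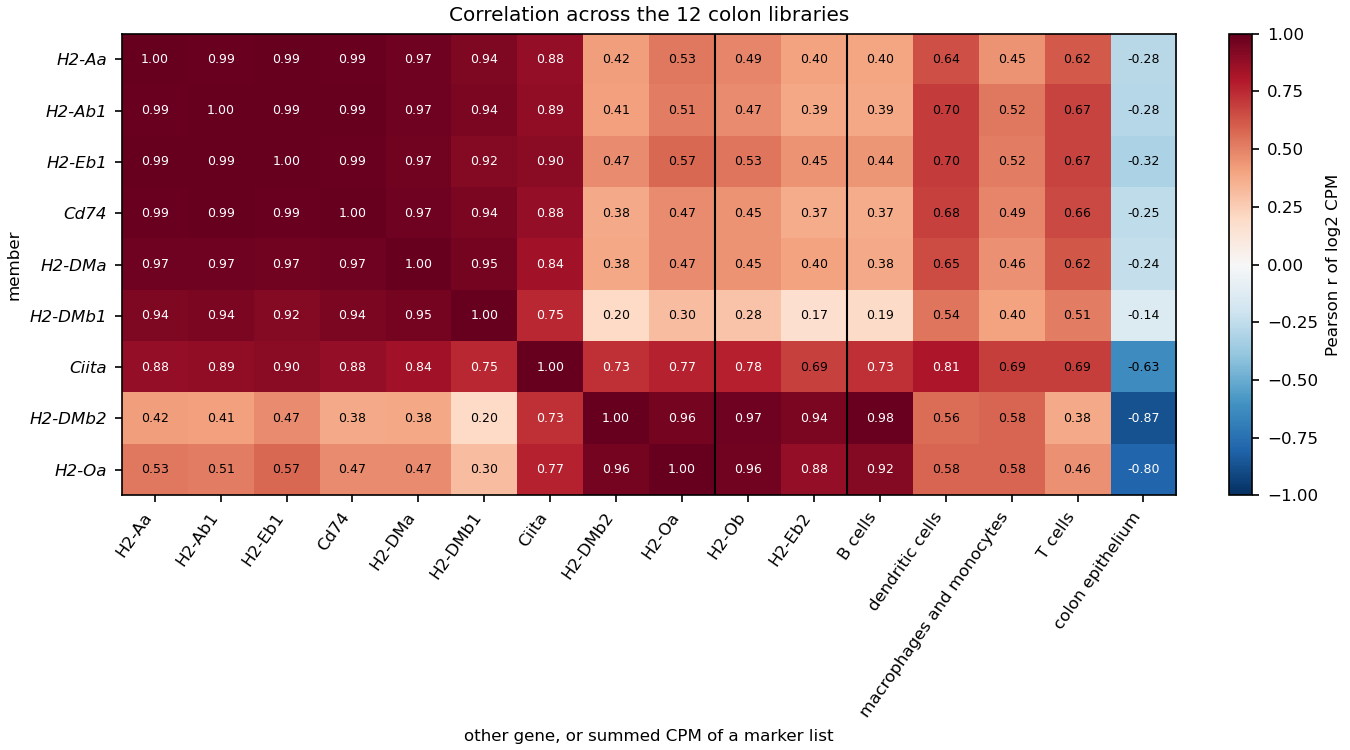
Pearson r of log2 CPM over the 12 libraries between each of the 9 genes (rows) and the other members, the relatives H2-Ob and H2-Eb2, and the summed CPM of 5 marker lists (columns). The first 6 rows form a block of 0.915 to 0.995, and H2-DMb2 and H2-Oa pair with the B cell list (0.985 and 0.921), to which the 6 are at 0.193 to 0.443.

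H2-DMb2 and H2-Oa moved with B cell markers. The summed CPM of 9 B cell markers was 147, 16.0 and 23.1 in Con, 459, 300 and 96.4 in DSS, 40.2, 21.6 and 29.4 in UA+DSS, and 353, 78.6 and 193 in DSS+UA, and no marker was at 0 throughout a group. All 9 markers lay wholly lower in UA+DSS than in DSS, beside 21.7% of all genes. Of the 9, 4 were called lowered, beside 10.5% of all genes, with Cd79a, Cd79b and Cd22 among them. Cd79a, a signalling chain of the B cell receptor, was at log2 -2.63 (SE 0.65, edgeR adjusted p = 0.0222). Against DSS+UA all 9 were again wholly lower in UA+DSS (22.5% of all genes), and Cd79a and Cd79b were called (9.23% of all genes lowered). For DSS against Con, where 26.5% of all genes were called, only Cd79a of the 9 was called, raised (log2 2.04, edgeR adjusted p = 0.0370). In the other 3 comparisons edgeR called none, with 0, 0 and 2 of the 9 at an unadjusted p under 0.05 for DSS+UA against DSS, UA+DSS against Con and DSS+UA against Con. In turn 5274, 2132 and 6360 of the 17658 tested genes were under that limit. H2-DMb2 correlated with this sum at r = 0.985 over the 12 libraries and 0.961 within groups, H2-Oa at 0.921 and 0.852. Other lists moved with these 2 genes as well. The summed CPM of 9 colon epithelium markers ran against them, at r = -0.868 for H2-DMb2 and -0.796 for H2-Oa (-0.850 to -0.818 within groups). That of 5 neutrophil markers ran with them at r = 0.698 to 0.730 (0.214 to 0.242 within groups). Of the epithelium markers all 9 were higher in UA+DSS than in DSS, 7 wholly so, and 3 were called raised. Of all genes 42.8% lay wholly to either side and 18.7% were called in either direction. All 5 neutrophil markers were called lowered in UA+DSS against DSS, beside 10.5% of all genes. Against DSS+UA the epithelium markers were divided, with 6 higher and 3 lower in UA+DSS. Wholly higher were 4 and wholly lower was 1, where 45.3% of all genes lay wholly to either side. Car1 alone was called there (raised), beside 16.8% of all genes called. The Hox score also ran with H2-DMb2 (r = 0.817, and 0.817 within groups) and with H2-Oa (r = 0.754, and 0.826 within groups). The part of B cell, epithelial or neutrophil content in the H2-DMb2 difference was not tested, and the Hox score and the group cannot be told apart.

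**Figure D4:**
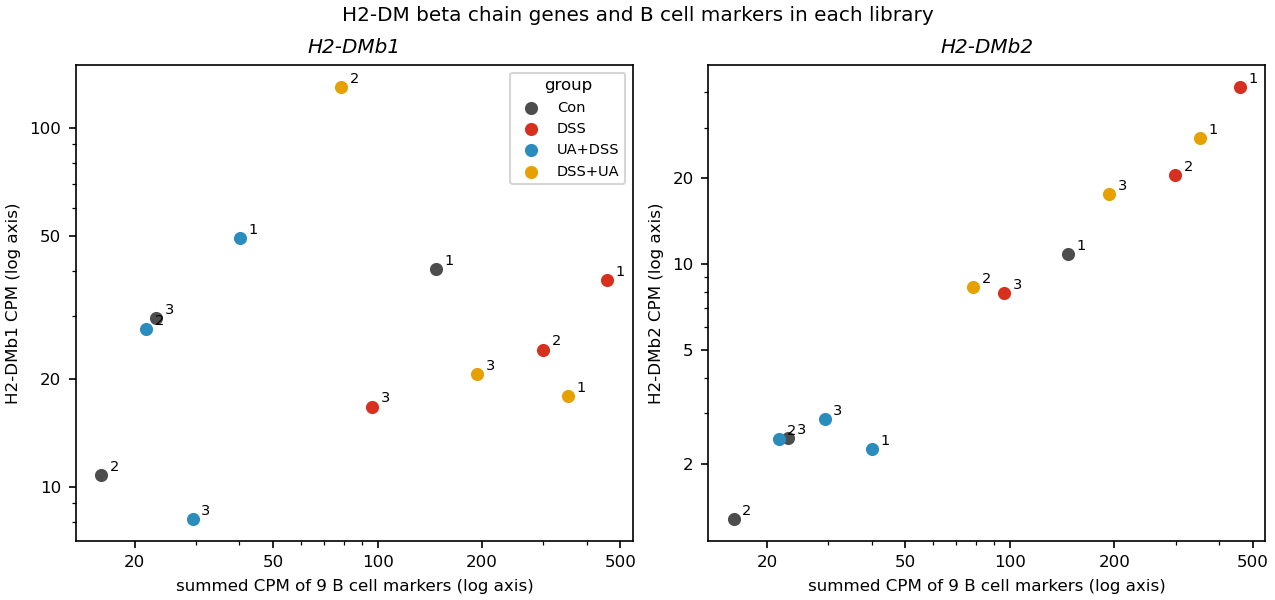
CPM of H2-DMb1 (left) and H2-DMb2 (right) against the summed CPM of 9 B cell markers, both axes log, 1 point per library coloured by group and numbered by replicate. Over the 12 libraries H2-DMb2 rises along with the marker sum (r = 0.985), and H2-DMb1 does not (r = 0.193), with DSS+UA 2 highest for H2-DMb1 (130 CPM) at a marker sum of 78.6. Within UA+DSS, replicate 1 has the highest marker sum (40.2) and the lowest H2-DMb2 (2.25 CPM).

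The related class II genes outside the set repeated the H2-DMb2 pattern in their values. H2-Ob stood at 18.0, 1.11 and 3.21 CPM in Con, 44.7, 29.96 and 7.77 in DSS, 3.91, 4.37 and 2.87 in UA+DSS, and 29.1, 8.23 and 16.4 in DSS+UA. H2-Eb2, a beta chain gene next to H2-Eb1, stood at 4.34, 0.943 and 0.481 CPM in Con, 22.1, 6.86 and 3.54 in DSS, 2.25, 1.19 and 1.49 in UA+DSS, and 11.1, 3.28 and 8.21 in DSS+UA. Both were wholly lower in UA+DSS than in DSS and DSS+UA but neither passed the test, with log2 differences from DSS of -2.89 (edgeR adjusted p = 0.0571) for H2-Ob and -2.72 (0.0518) for H2-Eb2. H2-Ob correlated with H2-DMb2 at r = 0.974.

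Of 13705 genes searched, those most like H2-DMb2 over the 12 libraries included Cd79b (r = 0.982), Ighm, Snn, H2-Ob, Cd79a, Ighd, Ms4a1, Fcmr and Pus7l (0.969). Those most like the mean profile of the 9 members were Ly86 (r = 0.938), Pld4 (0.898), Lpxn (0.882), Aif1 (0.869), Kmo, Spink1, H2-M3, Gimap7, Gm2a and Ccl20 (0.840). Ly86 encodes MD-1, the partner of RP105 on B cells, macrophages and dendritic cells, and it was also the gene most like Ciita (r = 0.960). For the 6 co-varying genes the nearest of the cell type lists examined was the dendritic cell list, with r from 0.536 to 0.699 and from 0.756 to 0.811 within groups, followed by T cell markers (0.742 to 0.790 within groups). Ciita was at 0.810 with the dendritic cell list, and its r with B cell markers was 0.732. The summed dendritic cell CPM was 17.9 to 27.6 in Con, 37.6 to 84.5 in DSS, 19.9 to 56.8 in UA+DSS and 31.2 to 53.3 in DSS+UA. Itgax and Ccr7 made up 31.86 and 26.15 of the 84.5 CPM in DSS 2. For DSS against Con 7 of the 9 markers were higher and 2 lower. Ccr7, Flt3 and Itgax were called raised, beside 26.5% of all genes called. Xcr1 lay wholly lower, at 0.962, 0.902 and 0.423 CPM in DSS and 1.14, 2.33 and 1.34 in Con. Macrophage and monocyte markers, at 783 to 3180 summed CPM in DSS against 200 to 364 in Con, were at r = 0.402 to 0.524 with the 6 genes (0.565 to 0.703 within groups). Of the highest of these sums, in DSS 2, Cd14 alone made up 2519 CPM, where it stood at 28.7 to 169 CPM in the other 11 libraries.

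Of 17 relatives and partners of the class II pathway, 16 were tested. For DSS against Con 4 were raised and 1 lowered, 5 of 16 beside the 26.5% of all genes called. The raised ones were the endosomal proteases Lgmn (log2 2.26, SE 0.27, edgeR adjusted p = 0.00133) and Ctsl (log2 0.90, edgeR adjusted p = 0.00395), March1, a ubiquitin ligase that takes class II molecules off the surface (log2 2.64, edgeR adjusted p = 0.00424), and Nfyb, an NF-Y subunit. The lowered one was Rfxank, an RFX subunit (log2 -1.09, SE 0.17, edgeR adjusted p = 0.00272). Lgmn stood at 65.2, 51.9 and 83.1 CPM in Con and at 403, 274 and 280 CPM in DSS, with no overlap. In UA+DSS against DSS 4 of 16 were called, beside 18.7% of all genes, of which Ctsl, March1 and Lgmn were lowered (log2 -0.80, -2.05 and -0.92, edgeR adjusted p = 0.0122, 0.0165 and 0.0350) and Rfxank raised (0.54, edgeR adjusted p = 0.0439). For DSS+UA against DSS the same 4 genes were called in the same directions, beside 7.54% of all genes, with edgeR adjusted p from 0.0402 to 0.0490. Ifi30, the endosomal thiol reductase, was lowered in UA+DSS against DSS+UA (log2 -0.81, edgeR adjusted p = 0.0201), as were Rfxap (-0.55, 0.0377) and Nfyc (-0.40, 0.0403). Of all genes 16.8% were called there. For DSS+UA against Con, where 18.1% of all genes were called, Lgmn and Nfyb were raised (log2 1.28 and 0.44). For UA+DSS against Con edgeR called none, with 2 of the 16 at an unadjusted p under 0.05, beside 2132 of the 17658 tested genes. The median log2 difference of the 16 was 0.36 for DSS against Con and -0.32 for UA+DSS against DSS.

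Of 13 inducers and repressors of Ciita, 12 were tested. Ifng itself was at most 0.928 CPM, in DSS+UA 2, and had too few counts for the test. For DSS against Con 4 of the 12 were raised, beside 26.5% of all genes called, namely Spi1, the myeloid and B cell factor PU.1 (log2 3.95, SE 0.80, edgeR adjusted p = 0.00743), Jak1 (0.88, 0.00431), Prdm1, a repressor of Ciita in plasma cells (1.46, 0.0160), and Irf4 (0.94, 0.0496). Of the 12, Spi1 and Jak1 were lowered in UA+DSS against DSS, where 18.7% of all genes were called (log2 -3.48 and -0.52, edgeR adjusted p = 0.0173 and 0.0441). For DSS+UA against DSS, where 7.54% of all genes were called, Irf4 was lowered (log2 -1.19, edgeR adjusted p = 0.0479). In the other 3 comparisons edgeR called none, with 1, 2 and 0 of the 12 at an unadjusted p under 0.05 for UA+DSS against Con, DSS+UA against Con and UA+DSS against DSS+UA. In turn 2132, 6360 and 5967 of the 17658 tested genes were under that limit. Irf1, an interferon gamma response gene, passed in no comparison. It was 322 CPM in DSS+UA 2, the library with the most Cd74, against 67.3 to 225 in the other 11, and Socs1 was 31.4 CPM there against 3.72 to 13.8.

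Antigen-presenting cells show co-stimulatory and inhibitory partners together with class II. Of 6 such genes, Cd80, Cd86 and Cd40 were raised for DSS against Con (log2 4.04, 1.95 and 1.96, edgeR adjusted p = 0.00493, 0.0117 and 0.0147) and lowered for UA+DSS against DSS (-4.00, -1.56 and -1.66, edgeR adjusted p = 0.0113, 0.0360 and 0.0359). Of all genes 26.5% were called in the first comparison and 18.7% in the second. Cd80, which gives T cells their second signal, stood at 1.29, 0.777 and 1.02 CPM in Con and at 6.74, 37.9 and 6.60 in DSS, with no overlap. It stood at 1.86, 0.437 and 0.904 CPM in UA+DSS. For the other 4 comparisons edgeR called none of the 6, with 2, 0, 2 and 0 at an unadjusted p under 0.05 for DSS+UA against DSS, UA+DSS against Con, DSS+UA against Con and UA+DSS against DSS+UA. In turn 5274, 2132, 6360 and 5967 of the 17658 tested genes were under that limit.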

How the data were processed

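RNA of mouse colon tissue was sequenced in 12 samples of 4 groups, as the sample labels give them. The authors checked reads with FastQC and mapped them to GRCm38 with HISAT2, and they deposited raw counts, whole numbers listed by Ensembl gene. The submitters' processing notes also name Cuffdiff. The study's methods name HISAT2 for the read counts too, and versions, strand, annotation release and multi-mapping are not stated in the sources used here. The labels and the study's methods name different RNA kits.

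Genes were kept by filterByExpr (17658), scaled by TMM and fitted in 1 robust edgeR 4.0.16 quasi-likelihood model of the 12 samples (R 4.3.3), and p-values were adjusted by Benjamini-Hochberg across the tested genes, with calls under 0.05. The model was also run on counts simulated from its own spread estimates, with differences planted in the DSS group only. There each gene varied by itself, so the run does not bear on genes that vary together or on the Hox score. CPM were TMM-scaled, correlations used log2 CPM with a prior count of 2, and 95% intervals came from the SE by the normal distribution. Ratios of members were tested over the 4 groups by exact permutation in Python 3.11.15. Alternatives used limma 3.58.1 (voom), DESeq2 1.42.0, other scalings and filters, a replicate block, the Hox score, the 2 groups alone, and leaving out each sample. Gene models and exon lengths came from GENCODE vM21.

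The members and gene lists were chosen with earlier results of these data known. All 9 members are named. Of each list, called genes and those with the smallest adjusted p were named, at most 4 a comparison, and for likeness the 10 non-members with the highest r. H2-Ob, H2-Eb2, Ifng, Irf1 and Socs1 were named after their values were seen. Some genes of the lists are not reported here.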

Additional observations from a re-analysis of the deposited data

How the results depend on the processing

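For H2-DMb2, H2-Oa and Ciita, 22 values under the alternatives turned in sign, 1 of them a called value that lost its call, another 16 lost a call and 17 gained one. No ratio test crossed the threshold. Members called for DSS against Con numbered 0 and became 1 with the replicate block, 1 by DESeq2 and 2 with the Hox score as a covariate, and 0 to 2 with 1 sample left out. The shares of all genes called were 26.5% in the main fit and in turn 24.8%, 32.3%, 30.5% and 15.8% to 25.7%. In UA+DSS against DSS the 1 call became 0 without the low-count filter, 0 with the Hox score, 0 by limma-voom and 2 by DESeq2, and 0 to 2 with 1 sample left out. The shares of all genes called were 18.7% in the main fit and in turn 7.3%, 0.017%, 17.2%, 25.5% and 1.0% to 22.7%. With the Hox score nearly all genes thus lost their call. For DSS+UA against Con 0 became 1 with the replicate block and 1 by DESeq2, and 0 to 2 with 1 sample left out. Over all genes the main fit called 3193 of 17658, the block 2920, DESeq2 4661, and the fits without 1 sample 1062 to 4057. In UA+DSS against DSS+UA 1 became 0 by library size only, 0 without the low-count filter, 0 with the Hox score, 0 by limma-voom, and 2 in a fit of those 2 groups and by DESeq2, and 0 to 1 with 1 sample left out. Over all genes the main fit called 2961 of 17658. The alternatives called in turn 2335, 2134, 0, 2838, 4284, 4349 and 560 to 3893. With the Hox score no gene at all was called there. Apart from fewer samples or other genes tested, the cause was not tested.

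The replicate numbers do not pair the samples: deviations of same-numbered samples correlated at -0.216 to 0.187, over 0.1 in 5 of 18 pairs. Under the block the log2 difference of UA+DSS against Con was 0.116 for H2-Oa and -0.026 for Ciita, and that of DSS+UA against DSS was 0.146 for Ciita, each turned in sign and not called.

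The Hox score as a covariate turned UA+DSS against DSS to 0.52 (H2-Oa) and 0.143 (Ciita), UA+DSS against Con to 1.454 (H2-DMb2) and 2.482 (H2-Oa), and UA+DSS against DSS+UA to 0.519 (H2-DMb2), 1.763 (H2-Oa) and 0.568 (Ciita). It also took the median of the other 6 members from below 0 to 0.896 (UA+DSS against DSS) and 0.699 (UA+DSS against DSS+UA). Ciita in DSS+UA against DSS was 0.006 without the filter and 0.05 by voom, and H2-Oa in UA+DSS against Con 0.418 by voom. With 1 sample left out, DSS+UA against DSS ran from -0.837 to 0.344 (H2-DMb2), -0.692 to 0.497 (H2-Oa) and -0.376 to 0.458 (Ciita), and UA+DSS against Con from -1.387 to 0.431, -1.042 to 1.202 and -0.545 to 0.479. H2-Oa could not be tested with at least 10 counts in every sample. With library sizes alone the median log2 difference of all genes was -0.12 (UA+DSS) and -0.11 (DSS+UA) against DSS, where TMM scaling gave -0.02 and 0.02.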
